A study of Mus musculus with 8 samples.

Results

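Integrins, laminins and syndecans were examined in mouse hepatic stellate cells (HSCs) and bone marrow-derived macrophages (BMDMs) exposed to auranofin. The genes were chosen by symbol, as every integrin alpha chain, integrin beta chain, laminin alpha, beta or gamma chain and syndecan named in the deposited tables. The rule found 41 of the 19382 genes listed in either table. The HSC table held 40 of its 18645 genes and that for BMDMs held 40 of its 17408. Lama1 was listed only for HSCs and Itgad only for BMDMs.

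RNA sequencing compared auranofin, a gold compound, with vehicle in 2 separate experiments, each with 2 vehicle and 2 auranofin libraries. HSCs from the nonparenchymal fraction of C57BL/6 mouse livers, isolated by density gradient and labelled as activated, received 0.03 µM auranofin or vehicle for 12 h. The labels call the HSC controls untreated, and the age of those mice was not given in the sources used here. BMDMs were bone marrow cells from male C57BL/6 mice 8 weeks of age, grown for 7 days with M-CSF, primed with lipopolysaccharide (LPS, 100 ng/ml) and given ATP (1 mM), which the BMDM controls also received. BMDM were exposed to auranofin for 1 h, at 0.1 µM by the sample labels and 0.3 µM by the study's text, so the dose in these libraries is uncertain. The sources do not say whether the libraries of a group came from separate cultures or animals. The p-values below therefore weigh each difference against the spread between these libraries, which may be technical. In limma the spread of each gene is moderated by that of all genes tested.

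Integrins are cell surface receptors made of 1 alpha and 1 beta chain. They join the extracellular matrix or another cell to the actin skeleton, and the alpha chain largely sets which ligand is bound. Laminins are trimers of an alpha, a beta and a gamma chain and form the sheet of basement membranes. Syndecans are transmembrane proteoglycans whose heparan sulfate chains bind matrix proteins and growth factors beside integrins. In the liver, activated HSCs lay down matrix and contract on it, and the leukocyte integrins of macrophages mediate adhesion and uptake of complement-coated particles.

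Each table gives FPKM, the fragments of a gene scaled to transcript length and library size. Steps of 1 fragment among the lowest values put the depth of the libraries at 27400000 to 39500000 fragments. Of 6430 HSC genes averaging 10 FPKM or more, 13 differed 2-fold or more between the vehicle libraries and 19 between the auranofin libraries. Of 4245 BMDM genes, 14 differed in this way between the vehicle libraries, and 383 between the auranofin libraries. It was BMDM auranofin replicate 1 that stood apart, with 368 and 377 genes differing from the vehicle libraries, whereas replicate 2 had 15 and 12. The BMDM counts, list medians and differences are therefore also given without that library.

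The labelled cell types were checked against marker genes. HSC libraries expressed the stellate markers Acta2 (737 to 965 FPKM) and Des (43.4 to 55.1 FPKM), but Lrat, the retinol-storing enzyme of quiescent stellate cells, was low (1.70 to 2.85 FPKM). The same libraries held abundant macrophage RNA, with Lyz2 at 5379 to 5554 FPKM, and endothelial markers summed to 269 to 284 FPKM. Hepatocyte markers summed to no more than 1.68 FPKM and lymphocyte markers to no more than 0.389 FPKM. In BMDMs the macrophage markers summed to 8323 to 9438 FPKM and the stellate markers to 11.02 to 17.4 FPKM. In such bulk samples, fewer cells of a type and less RNA per cell cannot be told apart.

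In HSCs, 29 of the 40 listed genes reached a mean of 1 FPKM and were tested. They comprised 14 of 17 alpha chains, 4 of 8 beta chains, 7 of 11 laminin chains and 4 of 4 syndecans. In BMDMs 17 of 40 were tested, with 8 of 18 alpha chains, 5 of 8 beta chains, 1 of 10 laminin chains and 3 of 4 syndecans. The 15 genes tested in both included the common beta chain Itgb1, the leukocyte beta chain Itgb2, the alpha chain Itgav and the laminin gamma chain Lamc1. Itgb7 and Itgb8 were tested only in BMDMs, and 14 genes only in HSCs. The other 10 were tested in neither.

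In vehicle-treated HSCs the highest levels per transcript length were those of Itgb1 (344 ± 16 FPKM, mean ± SD, n = 2), Itgb2 (193 ± 4.4 FPKM), the syndecan Sdc3 (161 ± 7.2 FPKM), Itgb5 (92.8 ± 5.2 FPKM), Itga5 (74.9 ± 1.8 FPKM) and Lamc1 (62.1 ± 1.5 FPKM). In vehicle-treated BMDMs the order was Sdc4 (389.6 ± 12 FPKM), Itgb2 (236 ± 1.4 FPKM), Sdc3 (217 ± 3.0 FPKM), Itga5 (199 ± 9.7 FPKM), Itgb1 (141 ± 0.48 FPKM) and Itgam (101 ± 2.9 FPKM). The collagen-binding alpha chains were present in HSCs, where they summed to 26.1 and 26.4 FPKM with vehicle, and nearly absent from BMDMs, where they summed to 0.107 and 0.137 FPKM. Laminin beta chains likewise summed to 88.7 and 89.2 FPKM in HSCs and to 0.278 and 0.292 FPKM in BMDMs. The tables were normalized separately, so these levels are set side by side without a test. The HSC libraries also held the macrophage RNA described above, and its part in levels such as that of Itgb2 was not tested.

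**Figure D1:**
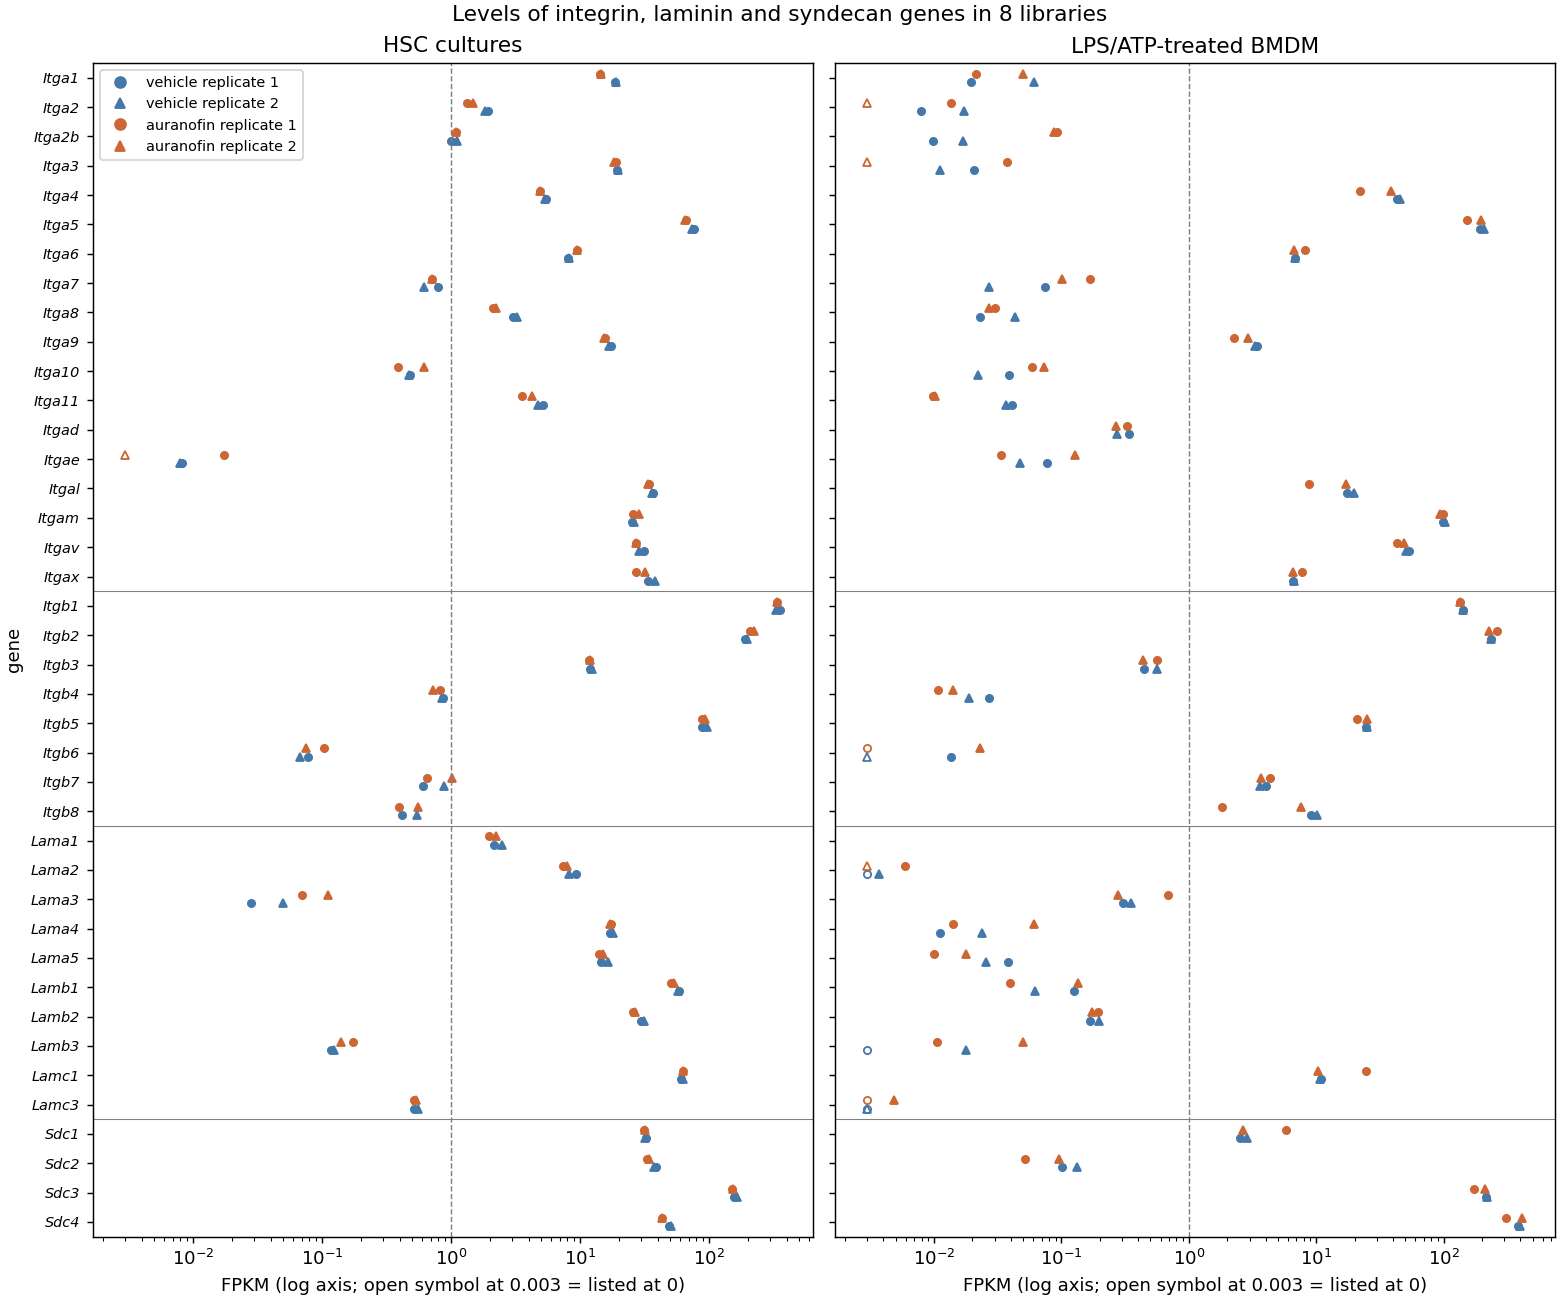
Level of 40 of the 41 integrin, laminin and syndecan genes in the 4 HSC libraries (left) and the 4 BMDM libraries (right), in FPKM on a log axis, with 1 symbol per library; open symbols mark values listed at 0 and the dashed line is the mean level of 1 FPKM needed for testing. Most laminin and collagen-binding alpha chains lie right of the line in HSCs and left of it in BMDMs.

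In HSCs exposed to auranofin, most of these genes were slightly lower, and only the collagen-binding alpha chain Itga1 passed an adjusted p of 0.05. None of the 29 genes passed both a 1.5-fold change and an unadjusted p of 0.05, thresholds that 0.576% of the 12149 genes tested passed. After Benjamini-Hochberg adjustment across every gene tested, limma called 1 of 29 genes (3.45%), against 2.33% of all genes. At an unadjusted p of 0.05, 12 genes were lower and 2 were higher, against 9.22% and 8.57% of all genes. The log2 difference was below 0 in 24 of 29 genes (82.8%), against 47.8% of all genes, and the median was -0.10 against 0.00487 for all genes. Both auranofin libraries lay below both vehicle libraries in 17 genes (58.6%) and above them in 2 (6.90%), where the shares of all genes were 23.9% and 26.2%. Groups that did not overlap in either direction made up 50.1% of all genes. Against the same vehicle mean, the median of these genes was -0.13 and -0.11 in auranofin replicates 1 and 2. The medians of all genes were 0.005 and 0.0054. In these auranofin libraries 25 and 22 of the 29 genes lay below that mean, beside 17 and 12 in vehicle replicates 1 and 2. Fold changes here are differences of log2(FPKM + 1), a scale on which changes of low genes come out too small.

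Some markers of several cell types were also lower in these libraries, and others were higher. The stellate and myofibroblast markers summed to 4392 and 4458 FPKM with vehicle and to 3849 and 3895 FPKM with auranofin. Of the 12 markers, 8 were lower, beside 47.8% of all genes, and 4 were higher (Lrat, Reln, Timp1 and Lox). Their median log2 difference was -0.09, against 0.00487 for all genes. Acta2, the smooth muscle actin of contractile HSCs, fell by 0.38 on the log2 scale (adjusted p = 0.00719, limma). The macrophage markers summed to 8361 and 8445 FPKM with vehicle, against 8207 and 8195 FPKM with auranofin, with 9 of 12 lower. Their median log2 difference was -0.03, and no marker of either list was at 0 in these libraries. Mrc1, the mannose receptor, fell by 0.28 and Clec4f, a Kupffer cell lectin, rose by 0.27 (adjusted p = 0.0395 for each, limma). Of the 10 endothelial markers, 4 were lower and 6 higher, with a median of 0.05. Among them the sinusoidal genes Stab2 and Clec4g fell by 0.37 and 0.44 (adjusted p = 0.0169 and 0.0130, limma). The cholangiocyte and mesothelial markers summed to 477 to 639 FPKM, mostly from Spp1 (351 to 464 FPKM). Spp1 had 3762 to 4672 FPKM in BMDMs, so its level does not mark these cell types alone. Upk3b had 114 to 160 FPKM, and Krt19, Krt7, Msln and Epcam had at most 7.40 FPKM. The markers of this list were lower in 5 of the 5 tested, with a median of -0.31. In 4 of them both auranofin libraries lay below both vehicle libraries, as in 23.9% of all genes. Of these, Msln, a mesothelial surface protein, fell by 0.41 (adjusted p = 0.0434, limma). The part of these markers in the values below was not tested.

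The collagen-binding alpha chains pair with Itgb1 and bind fibrillar or basement membrane collagen. Itga1, which prefers the collagen of basement membranes, had 18.8 and 19.1 FPKM in vehicle replicates 1 and 2 but 14.3 and 14.5 FPKM in auranofin replicates 1 and 2. The groups did not overlap, and Itga1 fell by 23.9%, from 18.9 ± 0.23 to 14.4 ± 0.19 FPKM (SD, n = 2). On the log2 scale the difference was -0.37 (SE 0.04, 95% interval -0.47 to -0.27), with an adjusted p of 0.0141 from limma. With auranofin replicate 1 left out the difference was -0.36 and the adjusted p 0.0527, so the call then missed the threshold.

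Its neighbour Itga2, the platelet-type collagen receptor chain, had 1.95 and 1.82 FPKM with vehicle, against 1.33 and 1.48 FPKM with auranofin. Itga11, the fibroblast receptor chain for fibrillar collagen, had 5.16 and 4.75 FPKM with vehicle, against 3.56 and 4.27 FPKM with auranofin. For both genes the auranofin libraries were the lower pair, but the log2 differences of -0.27 (SE 0.08) and -0.28 (SE 0.09) had adjusted p-values of 0.169 and 0.181 in limma. The difference of Itga11 was -0.18 without auranofin replicate 1. Summed over the class, which also holds Itga10 at under 0.62 FPKM, the level was 26.4 and 26.1 FPKM with vehicle, against 19.5 and 20.9 FPKM with auranofin.

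Itga1 and Itga2 lie 26.0 kb apart on the same strand of chromosome 13 (GRCm38.p6, which is mm10), Itga1 at chr13:114958079-115101964 and Itga2 at chr13:114833081-114932100, and Itga11 lies at chr9:62677855-62783979. Their promoters are shown because these 3 genes were lower together, and that of Itgb1 (chr8:128685654-128733579) because it encodes their shared partner chain, whose level did not pass the test. The sequences are RefSeq promoter sequences of GRCm38.p6, each the 250 bases before the start site read 5′ to 3′ on the gene's strand, at chr13:115101965-115102214 (minus strand), chr13:114932101-114932350 (minus strand), chr9:62677605-62677854 (plus strand) and chr8:128685404-128685653 (plus strand). Capitals mark matches of the motifs listed after them.
Itga1: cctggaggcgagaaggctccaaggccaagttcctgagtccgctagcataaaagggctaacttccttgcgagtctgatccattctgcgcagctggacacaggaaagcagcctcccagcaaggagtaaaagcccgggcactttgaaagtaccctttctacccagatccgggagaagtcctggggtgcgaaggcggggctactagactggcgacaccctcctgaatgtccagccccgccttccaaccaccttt
Itga2: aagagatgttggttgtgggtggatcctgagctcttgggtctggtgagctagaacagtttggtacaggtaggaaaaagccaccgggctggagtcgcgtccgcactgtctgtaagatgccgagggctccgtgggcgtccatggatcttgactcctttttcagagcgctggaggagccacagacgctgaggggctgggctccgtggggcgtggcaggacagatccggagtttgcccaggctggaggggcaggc
Itga11: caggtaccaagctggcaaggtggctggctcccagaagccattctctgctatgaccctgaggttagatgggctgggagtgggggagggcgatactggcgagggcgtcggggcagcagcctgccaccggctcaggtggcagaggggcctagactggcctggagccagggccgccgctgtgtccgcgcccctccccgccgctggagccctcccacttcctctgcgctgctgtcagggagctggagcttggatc
Itgb1: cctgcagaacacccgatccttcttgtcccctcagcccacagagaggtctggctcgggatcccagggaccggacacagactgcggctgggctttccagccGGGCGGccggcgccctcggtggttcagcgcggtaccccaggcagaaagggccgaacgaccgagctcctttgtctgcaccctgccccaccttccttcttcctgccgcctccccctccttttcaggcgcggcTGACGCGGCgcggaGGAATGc
Of the 41 genes, 26 matched the RefSeq promoter table, with 29 promoters. Both strands were searched for the AP-1 site (TGANTCA), the GC box (GGGCGG), the TEAD site (CATTCC), the core of the antioxidant response element (TGACNNNGC), the TATA box (TATAAA), the CCAAT box (that pentamer) and the CArG box of serum response factor. None of these patterns occurred in the windows of Itga1, Itga2 and Itga11. The Itgb1 window held a GC box 151 bases before the start, an antioxidant response core 21 bases before it, and a TEAD site, on the reverse strand, 7 bases before it. Over all 32851 promoters, each taken over the same length, the GC box occurred in 32.7%, the antioxidant response core in 10.2% and the TEAD site in 12.6%. Among the 29 promoters of these genes the counts were 12, 3 and 3. For the AP-1 site, the TATA box, the CCAAT box and the CArG box the shares of all promoters were 6.75%, 12.4%, 33.8% and 1.47%, and the counts among the 29 were 1, 0, 5 and 2. A match describes the letters of the window and not binding.

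**Figure D2:**
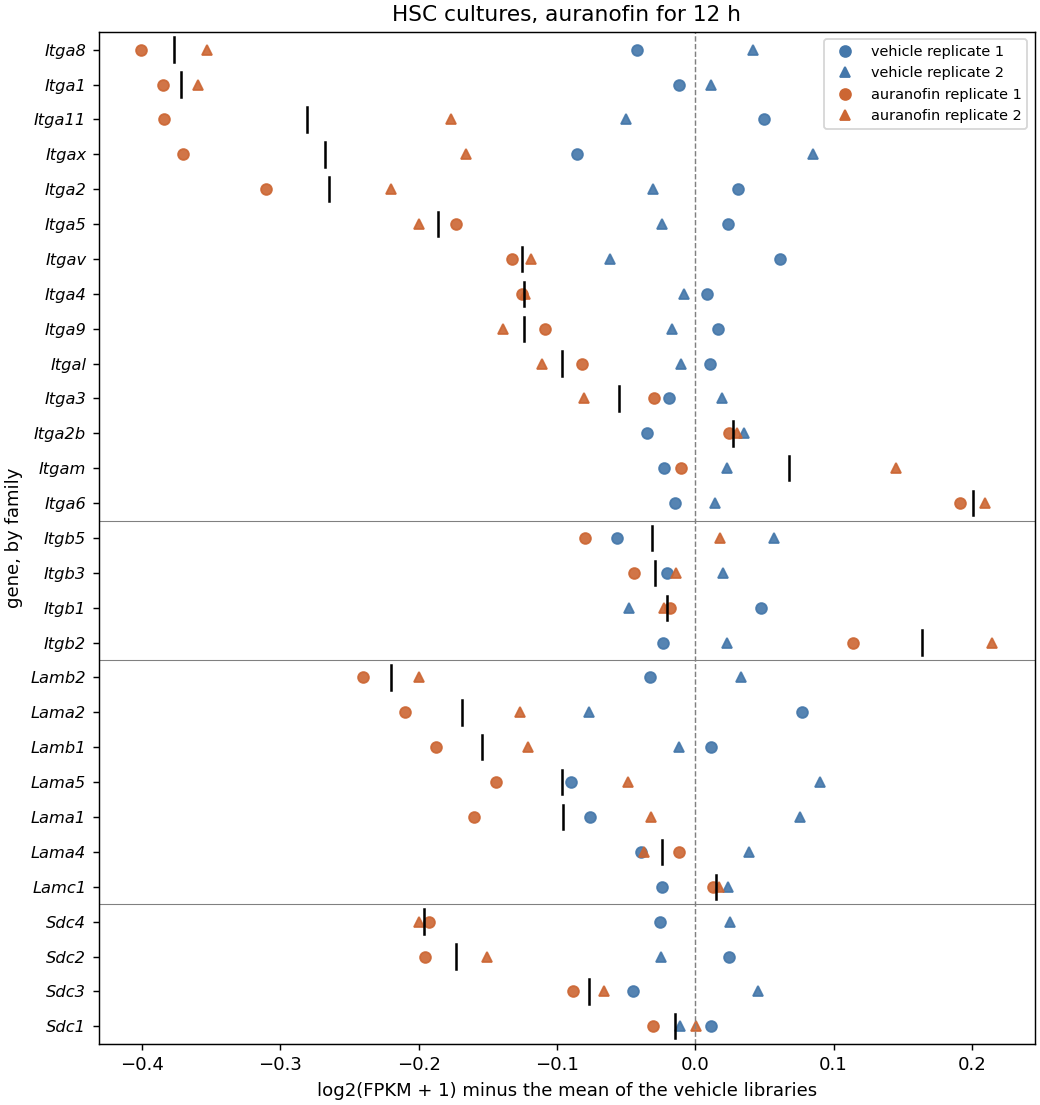
Log2 difference from the vehicle mean for the 29 genes tested in HSCs, on the log2(FPKM + 1) scale, with 1 symbol for each library. Black ticks mark the mean of the auranofin libraries. The ticks run from -0.38 for Itga8 to 0.20 for Itga6, and Itga1 is the gene with an adjusted p under 0.05 in limma.

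Of the 4 alpha chains that bind RGD or related sequences of fibronectin, vitronectin and fibrinogen, 3 had lower levels in HSCs with auranofin. The other, Itga2b, did not, and 47.8% of all genes had log2 differences below 0. Itga8, a chain of HSCs and smooth muscle that binds nephronectin and fibronectin, had 3.02 and 3.26 FPKM with vehicle, against 2.14 and 2.24 FPKM with auranofin. Its groups did not overlap, and its log2 difference of -0.38 (SE 0.07) was the largest among the 29 genes but had an adjusted p of 0.0590 in limma. Itga5, the fibronectin receptor chain, had 76.1 and 73.6 FPKM with vehicle, against 66.3 and 65.1 FPKM with auranofin, a difference of -0.19 (SE 0.04, adjusted p = 0.0658, limma). Itgav, which pairs with several beta chains to bind vitronectin and latent TGF-β, had 31.2 and 28.6 FPKM with vehicle, against 27.2 and 27.4 FPKM with auranofin. Both Itgav groups were apart, and the interval of its log2 difference of -0.13 ran from -0.25 to 0.000162. It was -0.06 without vehicle replicate 1. Itga2b, the platelet fibrinogen receptor chain, was near the filter at 1.01 and 1.11 FPKM with vehicle, against 1.09 and 1.10 FPKM with auranofin.

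The 2 laminin-binding alpha chains tested lay in opposite directions. Itga6 had 8.04 and 8.22 FPKM with vehicle, against 9.43 and 9.56 FPKM with auranofin, a difference of 0.20 (SE 0.05, adjusted p = 0.0962, limma). Both auranofin libraries lay above both vehicle libraries, which happened in 1 other gene of the 29, Itgb2. Itga3 lay the other way, from 19.3 and 19.8 FPKM to 19.1 and 18.4 FPKM, with both auranofin libraries below both vehicle libraries. Its log2 difference was -0.06. The class as a whole summed to between 28.1 and 29.3 FPKM in every HSC library. Itga9, a receptor chain for tenascin and osteopontin, had 17.3 and 16.9 FPKM with vehicle, against 15.8 and 15.4 FPKM with auranofin, and Itga4, which binds VCAM-1, was lower in both auranofin libraries by a log2 difference of -0.12. Neither of the latter pair passed the adjusted threshold.

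Leukocyte integrins were measured in the HSC libraries, which held the macrophage RNA described above. Itgax, whose chain pairs with Itgb2 on macrophages and dendritic cells, had 33.6 and 37.9 FPKM with vehicle, against 27.4 and 31.7 FPKM with auranofin. Its groups did not overlap but each was spread, and the difference of -0.27 (SE 0.09) had an adjusted p of 0.195 in limma. Without vehicle replicate 1 the difference was -0.35 and the adjusted p 0.0433, but it was -0.18 (adjusted p = 0.342) without vehicle replicate 2 and -0.17 (adjusted p = 0.497) without auranofin replicate 1. The shared beta chain Itgb2 was on the other side, with 189.8 and 196 FPKM with vehicle, against 209 and 224 FPKM with auranofin (difference 0.16, SE 0.04, adjusted p = 0.145, limma). Itgam had 25.4 and 26.2 FPKM with vehicle, against 25.6 and 28.6 FPKM with auranofin, so its groups overlapped. Auranofin replicate 2 was the highest of the 4 libraries for both Itgb2 and Itgam. It was also the highest for the neutrophil markers, which summed to 79.6 FPKM there and to 19.1, 6.89 and 6.50 FPKM in vehicle replicates 1 and 2 and auranofin replicate 1. Without auranofin replicate 2 the log2 difference was 0.11 for Itgb2 and -0.01 for Itgam. Itgal, another partner of Itgb2, had 36.8 and 36.2 FPKM with vehicle, against 34.5 and 33.7 FPKM with auranofin. Its log2 difference was -0.10 (adjusted p = 0.254, limma), and auranofin replicate 2 was its lowest library. The part of neutrophil RNA in these values was not tested.

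The other beta chains of HSCs lay close to their vehicle level. Itgb1 had 355 and 332 FPKM with vehicle, against 339 and 338 FPKM with auranofin, so both auranofin libraries lay between the vehicle libraries. Its log2 difference was -0.02, with an interval of -0.12 to 0.08. Itgb5, a partner of Itgav, had 89.1 and 96.4 FPKM with vehicle, against 87.7 and 93.9 FPKM with auranofin, and the groups overlapped. Itgb3, the other vitronectin receptor chain, likewise overlapped, with a difference of -0.03. Itgb4, Itgb6, Itgb7 and Itgb8 had mean levels under 1 FPKM and were not tested.

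Among laminin chains in HSCs, the beta chains were lower and the gamma chain was not. Lamb2, the beta chain of muscle and vessel basement membranes, had 29.9 and 31.3 FPKM with vehicle, against 25.8 and 26.5 FPKM with auranofin, a log2 difference of -0.22 (SE 0.04, adjusted p = 0.0658, limma). Lamb1, the more widespread beta chain, had 58.7 and 57.7 FPKM with vehicle, against 51.0 and 53.4 FPKM with auranofin, a difference of -0.15 (adjusted p = 0.123, limma). Neither beta chain's groups overlapped. Lamc1, the gamma chain of most laminins, had 61.0 and 63.1 FPKM with vehicle, against 62.6 and 62.8 FPKM with auranofin, inside the range of the vehicle libraries, and the interval of its difference of 0.02 ran from -0.07 to 0.10. Of the laminin alpha chains, Lama2 had 9.28 and 8.24 FPKM with vehicle, against 7.42 and 7.92 FPKM with auranofin (difference -0.17), and the groups of Lama1, Lama4 and Lama5 overlapped. The difference between the beta chains and Lamc1 was not tested.

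All 4 syndecans had log2 differences below 0 in HSCs, where 47.8% of all genes did. In 3 of them both auranofin libraries lay below both vehicle libraries, as in 23.9% of all genes. Sdc4, which acts beside integrins at focal adhesions, had 48.7 and 50.5 FPKM with vehicle, against 43.3 and 43.0 FPKM with auranofin, a difference of -0.20 (SE 0.04, adjusted p = 0.0640, limma). Sdc2, the syndecan of mesenchymal cells, had 38.7 and 37.3 FPKM with vehicle, against 33.1 and 34.1 FPKM with auranofin (difference -0.17, adjusted p = 0.0993, limma). Sdc3 had 156 and 166 FPKM with vehicle, against 151 and 154 FPKM with auranofin, a difference of -0.08 that was -0.03 without vehicle replicate 2. Sdc1, the epithelial and plasma cell syndecan, overlapped at a difference of -0.01.

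**Figure D3:**
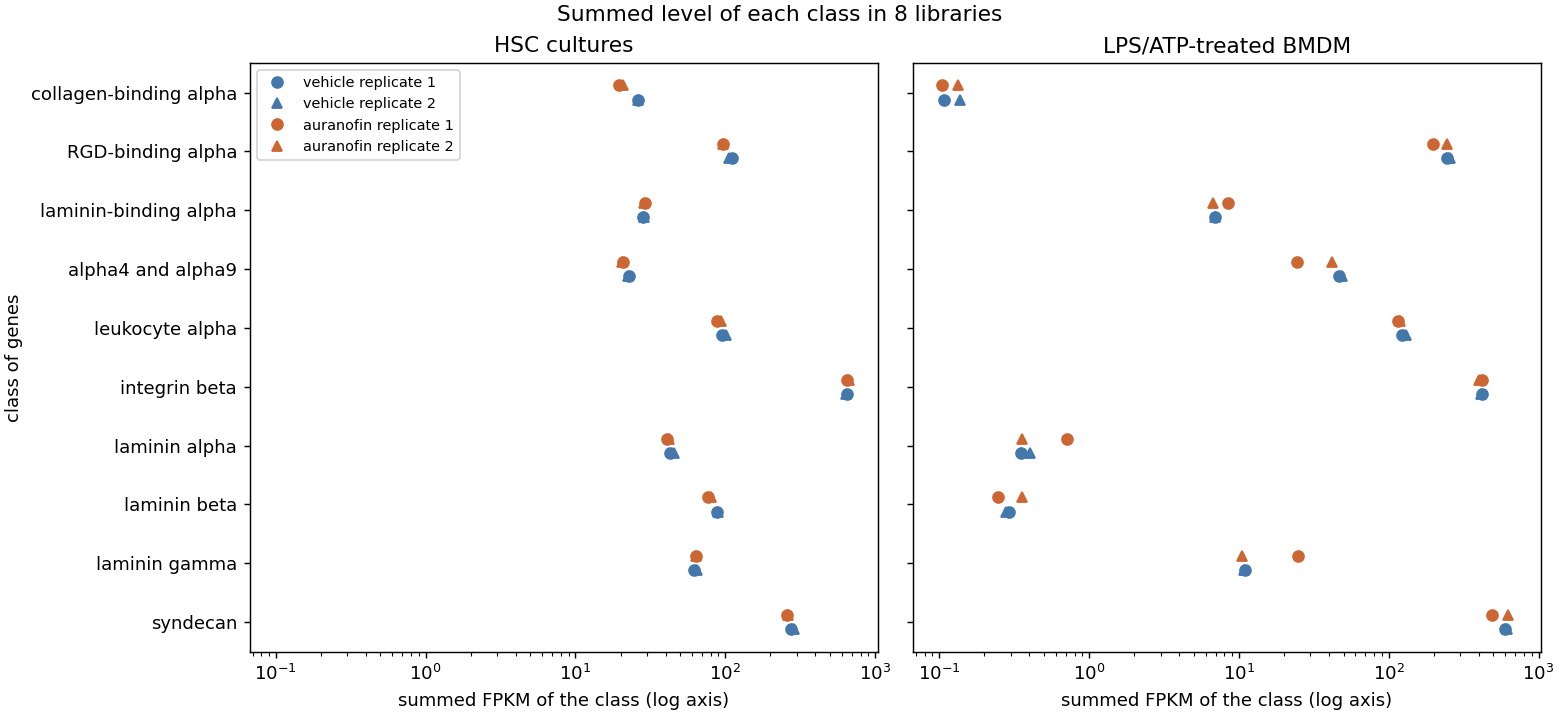
Summed FPKM of each class of genes in every library, on a log axis, for HSCs (left) and BMDMs (right); circles are replicate 1 and triangles replicate 2, in blue for vehicle and orange for auranofin. In HSCs the collagen-binding class sums to 26.4 and 26.1 FPKM with vehicle, against 19.5 and 20.9 FPKM with auranofin, and in BMDMs auranofin replicate 1 lies away from the other 3 libraries for alpha4 and alpha9 and for laminin gamma.

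Genes that act with these receptors were examined through 4 lists in HSCs. Of 28 tested adaptors and activators, which link integrin tails to actin, 3 fell with an adjusted p under 0.05 and none rose (all genes 1.09% and 1.24%). At an unadjusted p of 0.05, 13 were lower and 2 higher (all genes 9.22% and 8.57%), and the median log2 difference was -0.11 (all genes 0.00487). Vcl, vinculin of focal adhesions, had 87.7 and 87.4 FPKM with vehicle, against 70.4 and 68.0 FPKM with auranofin and fell by 0.33 on the log2 scale (SE 0.04, adjusted p = 0.0130, limma). Lims2, a PINCH adaptor that binds integrin-linked kinase, had 22.3 and 21.6 FPKM against 17.8 and 16.5 FPKM and fell by 0.34 (adjusted p = 0.0338, limma). Actn1, the actin crosslinker alpha-actinin, had 212 and 208 FPKM against 177 and 177 FPKM and fell by 0.25 (adjusted p = 0.0246, limma). For each of the 3 the groups did not overlap.

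Of 14 tested integrin ligands other than laminins, 2 fell with an adjusted p under 0.05 and none rose, where 1.09% and 1.24% of all genes did. Their median log2 difference was -0.15 (all genes 0.00487). Thbs1, the matricellular protein thrombospondin, fell by 0.63 (adjusted p = 0.00445) and Vcam1, the ligand of the Itga4 receptor on leukocytes, fell by 0.33 (adjusted p = 0.0276), both in limma. Vcam1 had 87.6 and 81.8 FPKM with vehicle, against 68.2 and 65.9 FPKM with auranofin, so the groups did not overlap. Among 11 basement membrane partners and non-integrin laminin receptors the median was -0.03, and 1 gene, the dystroglycan gene Dag1, fell by 2.0 (adjusted p = 0.00132, limma), beside 1.09% of all genes. Among 20 genes of heparan sulfate synthesis and syndecan partners the median was -0.01, and none passed the adjusted threshold in limma, with 1 lower and 1 higher at an unadjusted p of 0.05, beside 9.22% and 8.57% of all genes.

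In BMDMs, no integrin, laminin or syndecan gene passed the test, and the largest differences turned on 1 library. None of the 17 genes tested passed 1.5-fold with an unadjusted p of 0.05, which 0.152% of the 9232 genes tested passed, and none had an adjusted p under 0.05 in limma, which 0.0108% of all genes had. At an unadjusted p of 0.05 the count was also 0, against 0.531% of all genes. The log2 difference was below 0 in 11 of 17 genes (64.7%), against 33.9% of all genes, with a median of -0.13 against 0.0893 for all genes. The shift of all genes came with auranofin replicate 1, whose median over all genes was 0.18 against 0.0049 in replicate 2. After centring on the median of all genes, 14 of 17 were below 0, as were 50.7% of all genes. Both auranofin libraries lay below both vehicle libraries in 8 genes, against 12.6% of all genes, and above them in none, against 26.3%. Auranofin replicate 2 by itself lay below both vehicle libraries in 11 of the 17 genes and above both in 1, where the shares of all genes were 34.9% and 37.6%, a count added after the data were seen.

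Without auranofin replicate 1, 15 of 17 genes (88.2%) were below 0, against 48.1% of all genes, with a median of -0.05 and none past either threshold in limma. With auranofin replicate 1 as the lone auranofin library, 13 of 17 had an adjusted p under 0.05 (9 lower, 4 higher), as did 65.0% of all genes, and 5 of 17 passed the 1.5-fold threshold, as did 23.0% of all genes. These fits assume that the lone library varies like the vehicle pair.

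The integrin chains with the largest negative differences in BMDMs were Itgb8, Itga4, Itgal and Itga9, and auranofin replicate 1 was the lowest library for each. Itgb8 (chr12:119162803-119238276), the beta chain that binds latent TGF-β with Itgav, had 9.05 and 10.1 FPKM with vehicle, against 1.82 and 7.62 FPKM with auranofin. Both auranofin libraries were lower, replicate 1 far more than replicate 2, and the log2 difference of -1.10 had an SE of 0.58 (adjusted p = 0.721, limma). It was -0.29 without replicate 1 and -1.91 without replicate 2. By the depth estimate the 4 values stood for 2266, 2324, 533 and 2215 fragments.

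Itga4 had 42.8 and 45.2 FPKM with vehicle, against 22.1 and 38.8 FPKM with auranofin, and its log2 difference of -0.57 was -0.18 without replicate 1. Itgal, whose chain binds ICAMs with Itgb2, had 17.4 and 19.9 FPKM with vehicle, against 8.77 and 17.2 FPKM with auranofin, and its difference of -0.55 was -0.10 without replicate 1. Itga9 had 3.44 and 3.34 FPKM with vehicle, against 2.25 and 2.90 FPKM with auranofin (difference -0.30, and -0.17 without replicate 1). In all 3 both auranofin libraries lay below both vehicle libraries, with replicate 1 the lowest. Each had an adjusted p of 0.721 in limma with all 4 libraries.

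Lamc1 and Sdc1 were high in the same library. Lamc1 (chr1:153218922-153332786), the single laminin chain tested in BMDMs, had 10.9 and 10.8 FPKM with vehicle, against 24.4 and 10.3 FPKM with auranofin. Sdc1 had 2.54 and 2.86 FPKM with vehicle, against 5.83 and 2.64 FPKM with auranofin. In both genes replicate 1 stood above the other 3 libraries while replicate 2 was within or just under the vehicle range. The log2 differences of 0.52 for Lamc1 and 0.43 for Sdc1 became -0.06 and -0.02 without replicate 1.

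**Figure D4:**
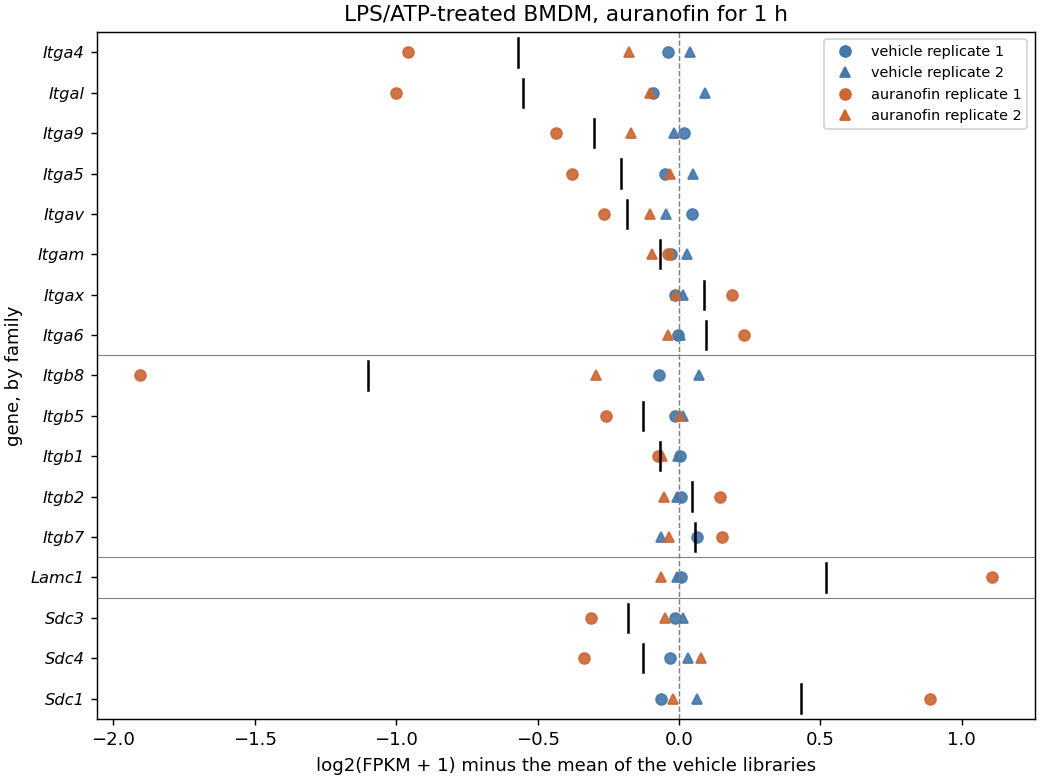
Log2 difference from the vehicle mean for the 17 genes tested in BMDMs, on the log2(FPKM + 1) scale, with 1 symbol for each library. Auranofin replicate 1 lies away from the other libraries for Itgb8, Itga4, Itgal, Sdc1 and Lamc1, for which auranofin replicate 2 lies nearer the vehicle libraries. Auranofin replicate 2 lies below both vehicle libraries in 11 of the 17 genes, as in 34.9% of all genes.

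The abundant adhesion genes of BMDMs differed less. Sdc4 had 381 and 398 FPKM with vehicle, against 309 and 411 FPKM with auranofin, so the groups overlapped, and its log2 difference of -0.13 was 0.08 without replicate 1. Itga5 had 192 and 206 FPKM with vehicle, against 153 and 195 FPKM with auranofin, and the groups overlapped at a difference of -0.20. Sdc3 had 215 and 219 FPKM with vehicle, against 175 and 209.6 FPKM with auranofin, a difference of -0.18 with groups that did not overlap. Without replicate 1 the differences were -0.03 for Itga5 and -0.05 for Sdc3. Itgb5 had 24.7 and 25.2 FPKM with vehicle, against 20.7 and 25.0 FPKM with auranofin, so replicate 1 was the low library and replicate 2 lay within the vehicle range. Its log2 difference was -0.13, and 0.0030 without replicate 1.

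Itgav had 53.8 and 50.4 FPKM with vehicle, against 43.1 and 48.5 FPKM with auranofin, a difference of -0.18. Itgb1 had 142 and 141 FPKM with vehicle, against 134 and 135 FPKM with auranofin, a difference of -0.07 with an interval of -0.35 to 0.21. Itgam, the complement receptor chain, had 99.0 and 103 FPKM with vehicle, against 98.2 and 94.4 FPKM with auranofin. For these 3 genes both auranofin libraries were the lower ones, and the interval of each difference included 0. Without replicate 1 the differences were -0.10 for Itgav, -0.06 for Itgb1 and -0.10 for Itgam.

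Itgb2, Itgb7, Itgax and Itga6 had small positive log2 differences that rested on replicate 1. Itgb2 had 237 and 235 FPKM with vehicle, against 261 and 227 FPKM with auranofin. Itga6 had 6.83 and 6.87 FPKM against 8.21 and 6.64 FPKM, and Itgax 6.55 and 6.68 FPKM against 7.68 and 6.56 FPKM. Itgb7, the partner of Itga4 in gut-homing lymphocytes, had 4.05 and 3.62 FPKM against 4.37 and 3.71 FPKM. The differences, 0.05 for Itgb2, 0.09 for Itga6, 0.09 for Itgax and 0.06 for Itgb7, were -0.05, -0.04, -0.01 and -0.04 without replicate 1. Centring on the median of all genes also turned Itgb2, Itgax and Itgb7 to below 0.

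The linked lists held no BMDM gene past 1.5-fold with an unadjusted p of 0.05, with an adjusted p under 0.05, or with an unadjusted p under 0.05 in limma. The median log2 difference was 0.08 over 21 adaptors and activators, -0.07 over 8 ligands, 0.10 over 4 basement membrane partners and -0.02 over 15 heparan sulfate genes. Over all genes tested it was 0.0893. Without auranofin replicate 1 the list medians, added after the data were seen, were 0.0054, 0.04, -0.0059 and -0.0084, against 0.0049 for all genes. Macrophage markers summed to 8500 and 8323 FPKM with vehicle and to 9438 and 8532 FPKM with auranofin, and neutrophil markers to 162 and 173 FPKM and to 225 and 239 FPKM. Their part in the integrin values was not tested.

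For the 15 genes tested in both cell types, the differences stand side by side without a test, since dose, time and treatment differed. The BMDM value is given with all 4 libraries and then without auranofin replicate 1. Itga4 had -0.12 in HSCs and -0.57 and -0.18 in BMDMs, Itga5 had -0.19 in HSCs and -0.20 and -0.03 in BMDMs, and Itgav had -0.13 in HSCs and -0.18 and -0.10 in BMDMs. Itga6 had 0.20 in HSCs and 0.09 and -0.04 in BMDMs, and Itgb2 had 0.16 in HSCs and 0.05 and -0.05 in BMDMs. Itgax had -0.27 in HSCs and 0.09 and -0.01 in BMDMs. Itgb1 had -0.02 in HSCs and -0.07 and -0.06 in BMDMs, and Lamc1 had 0.02 in HSCs and 0.52 and -0.06 in BMDMs. For the others, only the BMDM value with all 4 libraries follows, and that without auranofin replicate 1 is given above. Itga9 had -0.12 in HSCs and -0.30 in BMDMs, Itgal -0.10 and -0.55, Itgam 0.07 and -0.07, and Itgb5 -0.03 and -0.13. Sdc1 had -0.01 in HSCs and 0.43 in BMDMs, Sdc3 -0.08 and -0.18, and Sdc4 -0.20 and -0.13.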

How the data were processed

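RNA was sequenced from mouse HSCs (4 libraries) and BMDMs (4 libraries) with a stranded mRNA preparation. In 1 table per cell type, headed mm10, the authors deposited FPKM values. Per the submitters' processing notes, CASAVA, FastQC 0.11.7, Trimmomatic 0.38, HISAT2 2.1.0 and StringTie 1.3.4d were named, with no order or settings. FPKM has no counts, so count-based tests were not used. Depth was estimated from values under 0.2 FPKM in genes with 1 transcript and GENCODE M21 lengths. Depth limits counting error only. Of the values for up to 5 fragments, 38.3% to 45.3% lay within 0.04 of a whole fragment.

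Each table was fitted alone as log2(FPKM + 1), over genes averaging 1 FPKM or more, in limma (eBayes with trend), with Benjamini-Hochberg adjustment over all genes tested. An exact two-sided permutation test of 2 libraries against 2 cannot go below p = 0.333. The fit was tested on simulated data. Groups and replicate numbers came from the labels. Intervals are 95%.

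The genes and lists were chosen with earlier results of these data known. Values of every library are given for genes past a threshold, the 6 largest differences each way, the 6 highest levels, and Itgb1, Itgav and Lamc1. Others that are named with values were chosen after those values were seen. Sums over a class include its untested genes. Values of 1 gene are not reported here. Alternatives were a pseudocount of 0.1, no filter, a mean of at least 5 FPKM, centring on the median, quantile normalization, values above 0 in every library, no trend, no moderation, a replicate block, a 2-fold threshold, and each library left out. Promoters are RefSeq sequences of GRCm38.p6. Tools were limma 3.58.1 in R 4.3.3, and pandas 2.3.3, numpy 2.4.6 and matplotlib 3.10.9 in Python 3.11.15.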

Additional observations from a re-analysis of the deposited data

Results flagged for a closer look

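Genes below the mean of 1 FPKM entered class sums but no test above. A few of them had both auranofin libraries above both vehicle libraries and means at least 2-fold apart. Lama3, a chain of epithelial laminin, had 0.0285 and 0.0498 FPKM in vehicle HSCs and 0.0706 and 0.112 FPKM with auranofin, a mean of 0.0914 FPKM. In BMDMs, Itga2b had 0.00977 and 0.0168 FPKM with vehicle, against 0.0930 and 0.0879 FPKM with auranofin, a mean of 0.0905 FPKM. By the depth estimate these Itga2b values stood for 1.0 and 1.6 fragments and for 11.2 and 10.5 fragments, and without the filter limma gave an adjusted p of 0.750. Itga7, the laminin-binding chain of muscle, had 0.0738 and 0.0270 FPKM in vehicle BMDMs and 0.168 and 0.101 FPKM with auranofin, a mean of 0.134 FPKM. Itga10, a collagen-binding chain, had 0.0388 and 0.0223 FPKM and then 0.0588 and 0.0728 FPKM, a mean of 0.0658 FPKM, from an estimated 3.1 to 12.7 fragments. In the other direction, and noted after the values were seen, BMDM Itga11 had 0.0407 and 0.0368 FPKM with vehicle, against 0.00987 and 0.0102 FPKM with auranofin, from an estimated 6.0 and 5.0 fragments and then 1.7 and 1.7. BMDM Lama5 had 0.0382 and 0.0255 FPKM with vehicle, against 0.0100 and 0.0178 FPKM with auranofin. At such levels a few fragments set the value, and the unfiltered fit of neither table gave any of these genes an adjusted p under 0.05.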

How the results depend on the processing

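In HSCs, 191 of 204 values for single genes kept their direction and their side of the adjusted threshold, and in BMDMs 179 of 205. These counts cover only the genes picked by threshold, size of difference or level, with Itgb1, Itgav and Lamc1. The filters, no trend, no moderation and the replicate block leave the difference itself unchanged, so direction could not move there. No BMDM gene had passed the adjusted threshold in the main fit. The count of HSC genes with an adjusted p under 0.05 was 1, but 0 with no filter or with no moderation, and 0 to 4 with a library left out. It was 0 without auranofin replicate 1 and 4 without vehicle replicate 1 (Itga1, Itgax, Lamb2 and Sdc4). The HSC median log2 difference of -0.10 was -0.13 with a pseudocount of 0.1, -0.0430 with no filter and -0.13 to -0.11 with a library left out. Itgb1 in HSCs was 0.000516 after quantile normalization. With a library left out, the HSC ranges that crossed 0 were -0.07 to 0.03 for Itgb1, -0.09 to 0.03 for Itgb5, -0.01 to 0.04 for Lamc1, -0.01 to 0.06 for Itga2b and -0.01 to 0.15 for Itgam. In BMDMs, with no filter 20 of 40 genes were below 0 and the median was -0.00285. With a library left out, the BMDM median ran from -0.257 to -0.0526, the count past 1.5-fold from 0 to 5 and the count past the adjusted threshold from 0 to 13, with the upper counts and the lowest median reached without auranofin replicate 2. The BMDM ranges that crossed 0 were -0.06 to 1.11 for Lamc1, -0.02 to 0.89 for Sdc1, -0.33 to 0.08 for Sdc4, -0.04 to 0.23 for Itga6, -0.01 to 0.19 for Itgax, -0.05 to 0.15 for Itgb2 and -0.04 to 0.15 for Itgb7. Quantile normalization gave -0.02 for Itga6, -0.03 for Itgax and -0.07 for Itgb7, and centring on the median -0.00328 for Itgax, -0.05 for Itgb2 and -0.03 for Itgb7. The cause of these changes was not tested. Libraries with the same number deviated together with a correlation of 0.109 in HSCs and -0.06 in BMDMs, and the labels name no shared batch, so the numbers were not taken as pairs. With the replicate block, 2 of 29 HSC genes had an adjusted p under 0.05 in limma (Itga1 and Itgax), as did 2.32% of all genes. Among BMDM genes 1 of 17 passed 1.5-fold with an unadjusted p of 0.05 (Itgb8), as did 0.455% of all genes. The adjusted p of Itgb8 was 0.890. At an unadjusted p of 0.05 the block added Itgav in HSCs and Itgb8 in BMDMs, and it changed no other call of these kinds. Depth limits the genes below 1 FPKM, where a few fragments set a value.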
